A study of Mus musculus with 26 samples.

Results

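The transcripts of Ptprc, the gene of the surface phosphatase CD45, and the level of Hnrnpll, the gene of an RNA-binding protein that acts on CD45 splicing, were examined in TCRTg101 cells. The receptor of these CD8+ T cells comes from a clone that recognises C1498, a transplantable mouse acute leukemia line, and is carried as a transgene. Every transcript that the deposited tables assign to Ptprc was taken, which gave 13 of 118783 transcripts, and Hnrnpll was taken as 1 of 35944 genes. The choice used no measured value, but it was made with earlier results of these data known. Low-input RNA libraries had been made from cells sorted by flow cytometry. Controls were 2 libraries of naive Tg101 cells at day 0 and 1 library from untreated mice at day 18, all from spleen. The undivided group was 1 spleen library of day 18 cells that had kept their division dye (CTVhi) in leukemia-bearing mice. The other libraries were from leukemia-bearing mice and comprised 2 early spleen libraries (day 7), 1 mid spleen library (day 14), 2 early liver libraries (day 7), 3 mid liver libraries (2 at day 13 and 1 at day 14) and 2 late liver libraries (days 16 and 18). The labels give strain C57BL/6, genotype wild type and an age of 6 weeks for all of them, and in the study the transgenic mice had been bred onto a Rag2-/- background. A further day 0 library was primed with oligo-dT and entered no comparison. The sources used here do not say whether libraries of a group came from separate mice, so p-values measure the spread between these libraries, which may be technical. In the study TCRTg101 were transferred into host mice, which were then given C1498 cells intravenously, and were sorted at set days after transfer. Leukemia and tissue changed together between the controls and the liver libraries and cannot be told apart in that comparison. For the day 0 controls, transfer into a host and the days after it changed as well.

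CD45 is an abundant receptor-type tyrosine phosphatase of hematopoietic cells. It removes the inhibitory phosphate from the Src-family kinases Lck and Fyn and so sets how strongly the T cell receptor can signal. Its extracellular part is varied by skipping of exons A, B and C, and the proteins are named after the exons they keep, from CD45RABC to CD45RO, which has none of them. Naive T cells are known for the longer forms and activated and memory T cells for the shorter ones, and hnRNPLL is known as a protein that binds the variable exons and promotes their skipping upon T cell activation.

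Ptprc (ENSMUSG00000026395.16) lies on the minus strand of chr1:138062861-138175708 in build GRCm38, and Hnrnpll (ENSMUSG00000024095.15) on the minus strand of chr17:80029487-80062334. The variable exons are the coding exons 4, 5 and 6 of Ptprc, also called A, B and C, and exon 7 is skipped in 1 of the coding transcripts. Exon A (chr1:138122456-138122584) has 129 bases, exon B (chr1:138120020-138120166) 147, exon C (chr1:138117754-138117894) 141 and exon 7 (chr1:138116954-138117025) 72. Each length is a multiple of 3, so each exon can be left out without a change of reading frame (43, 49, 47 and 24 codons). The exons are shown 5′ to 3′ on the minus strand as spliced into the GENCODE vM21 transcripts, because their presence is what separates the transcripts compared here. Capitals mark the exon, and the 10 lower-case bases on each side belong to the neighbouring exons of the transcript.
exon 4 (A): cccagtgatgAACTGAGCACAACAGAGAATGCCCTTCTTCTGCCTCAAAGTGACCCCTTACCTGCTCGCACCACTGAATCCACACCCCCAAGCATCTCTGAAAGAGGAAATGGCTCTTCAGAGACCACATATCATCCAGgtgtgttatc
exon 5 (B): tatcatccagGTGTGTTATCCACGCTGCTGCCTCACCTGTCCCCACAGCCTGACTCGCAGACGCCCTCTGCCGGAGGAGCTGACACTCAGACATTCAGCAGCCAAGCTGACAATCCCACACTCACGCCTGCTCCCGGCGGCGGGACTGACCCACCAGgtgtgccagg
exon 6 (C): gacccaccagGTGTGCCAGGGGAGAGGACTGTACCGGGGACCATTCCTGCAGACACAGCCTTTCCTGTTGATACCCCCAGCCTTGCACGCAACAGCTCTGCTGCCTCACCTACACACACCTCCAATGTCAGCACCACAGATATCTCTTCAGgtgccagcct
exon 7: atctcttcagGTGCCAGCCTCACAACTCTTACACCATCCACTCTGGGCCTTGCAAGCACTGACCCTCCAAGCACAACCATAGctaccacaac

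The coding transcripts part after exon 3 (chr1:138126303-138126326, 24 bases), and the join that follows it separates the 4 abundant ones. The short Ptprc-212 has the same join as Ptprc-207 and is not told apart from it there. The joins are shown with the 24 bases of exon 3 in lower case and the first 24 bases of the next exon in the transcript in capitals.
Ptprc-207, exon 3 to exon 4 (A): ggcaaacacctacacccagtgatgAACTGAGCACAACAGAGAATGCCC
Ptprc-213, exon 3 to exon 5 (B): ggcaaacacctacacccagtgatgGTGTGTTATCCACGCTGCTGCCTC
Ptprc-203, exon 3 to exon 7: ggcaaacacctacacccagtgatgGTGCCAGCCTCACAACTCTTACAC
Ptprc-204, exon 3 to exon 8: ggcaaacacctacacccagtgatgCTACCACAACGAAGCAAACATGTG

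Of the 13 Ptprc transcripts, 5 are annotated as coding and 8 as retained-intron transcripts. Ptprc-207 (5074 bases) holds exons A, B and C and encodes the CD45RABC form. Ptprc-203 (4702 bases) holds none of them and encodes CD45RO, and Ptprc-204 (4611 bases) lacks exon 7 as well. Ptprc-213 (702 bases) holds exon B alone and stands for the CD45RB form, but the annotation ends it before the end of the coding sequence. Ptprc-212 (415 bases) is also cut short and holds exon A and part of exon C. No coding transcript with exons A and B or B and C alone was among the 13, so reads of such forms had to be shared out among the ones listed.

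**Figure D1:**
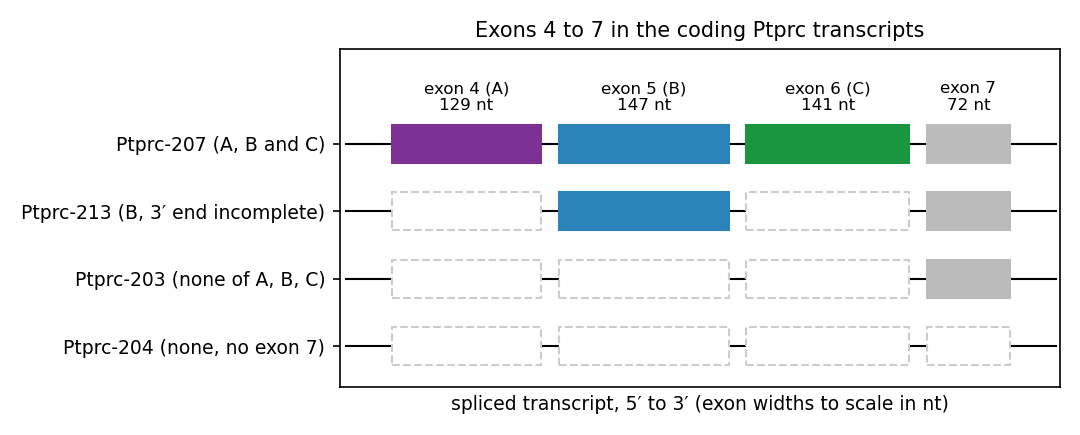
Exons 4 to 7 of the 4 abundant coding Ptprc transcripts, drawn 5′ to 3′ with exon widths to scale. Filled boxes are exons that the transcript holds and dashed boxes exons that it skips, from Ptprc-207 with all 4 exons to Ptprc-204 with none of them.

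Short reads limit how well these transcripts can be separated. Of the 4672 stretches of 31 bases in Ptprc-203, 32 (0.68%) are found in no other Ptprc transcript, and the figures are 29 (0.63%) for Ptprc-204, 47 (0.93%) for Ptprc-207 and 50 (7.44%) for Ptprc-213. Against Ptprc-207 alone, 74 stretches of Ptprc-203 differ, while 446 of the 5044 in Ptprc-207 are not in Ptprc-203. Most reads therefore fit several transcripts, and kallisto divided them by its model of likelihood. Estimated counts carry this uncertainty, which the tests do not include. Runs of the same library give a view of it. Over 11 libraries sequenced in 2 runs, the share with a variable exon differed between runs by a median of 1.41 percentage points and by at most 7.44, in control replicate 1. The split between Ptprc-203 and Ptprc-204 was looser, at most 11.7 and 11.1 points apart in control replicate 3, whose 2 runs gave Ptprc-204 11.9% and 0.84% and a variable-exon share of 55.0% and 54.3%. In the study cells and hosts were told apart by the CD45.1 and CD45.2 alleles of Ptprc itself. The labels do not give the allele of the sequenced cells, and estimated counts do not show it.

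The 14 low-input libraries held 22918996 to 71358287 estimated counts (median 34349318), of which Ptprc took 30433 to 94913 and Hnrnpll 728 to 4258, so counting error was small beside the spread between libraries. The T cell markers Cd3d, Cd3e, Cd3g, Cd8a, Cd8b1 and Trac summed to 3492 to 5429 TPM (a level scaled by transcript length and library size) in every library. Cells of other types can hold other CD45 forms, and in bulk RNA fewer cells of a type and less RNA per cell cannot be told apart. B cell markers summed to 9.05 to 25.8 TPM, most of it Cd79b. Both day 0 controls held macrophage markers (sums of 185.6 and 52.9 TPM over 5 genes, against 5.77 in the day 18 control and 8.49 to 20.2 in the mid and late liver libraries) and erythroid markers (7394 and 36370 TPM over 3 hemoglobin genes). Hepatocyte markers summed to 2.48 to 112 TPM in the mid and late liver libraries and to at most 0.536 TPM in controls. The early liver libraries were unlike each other, as Hnrnpll below shows.

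The share of Ptprc transcripts with a variable exon was lower in mid and late liver TCRTg101 than in controls. The share is the level of Ptprc-207, Ptprc-213 and Ptprc-212 as a percentage of all 5 coding transcripts, with the level taken as estimated counts over effective length. In controls it was 47.4%, 48.6% and 54.9%. The mid liver libraries gave 36.1%, 39.2% and 35.7%, and the late liver libraries 27.4% and 29.9%. All 5 liver libraries lay below the lowest control, and both late libraries lay below all mid libraries. The mean was 50.3% ± 3.99 (SD, n = 3) in controls and 33.7% ± 4.87 (SD, n = 5) in mid and late liver. The difference of -16.7 percentage points gave p = 0.0357 in a two-sided exact permutation test, the smallest value that the 56 arrangements allow, and 0.0536 after adjustment over the 6 shares compared. Within series TG, 1 control stood at 47.4% and the 2 liver libraries averaged 31.7%. Within series XC, 2 controls averaged 51.7% and 3 liver libraries 34.9%. The series are named in the sample titles and were taken as the 2 sequencing batches. Macrophage and erythroid markers were high in the 2 day 0 controls, and their part in the shares was not tested. The day 18 control, with few of these markers, had the highest variable-exon share of the controls. It is 1 library, and in it the lack of these markers cannot be told apart from the later day.

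**Figure D2:**
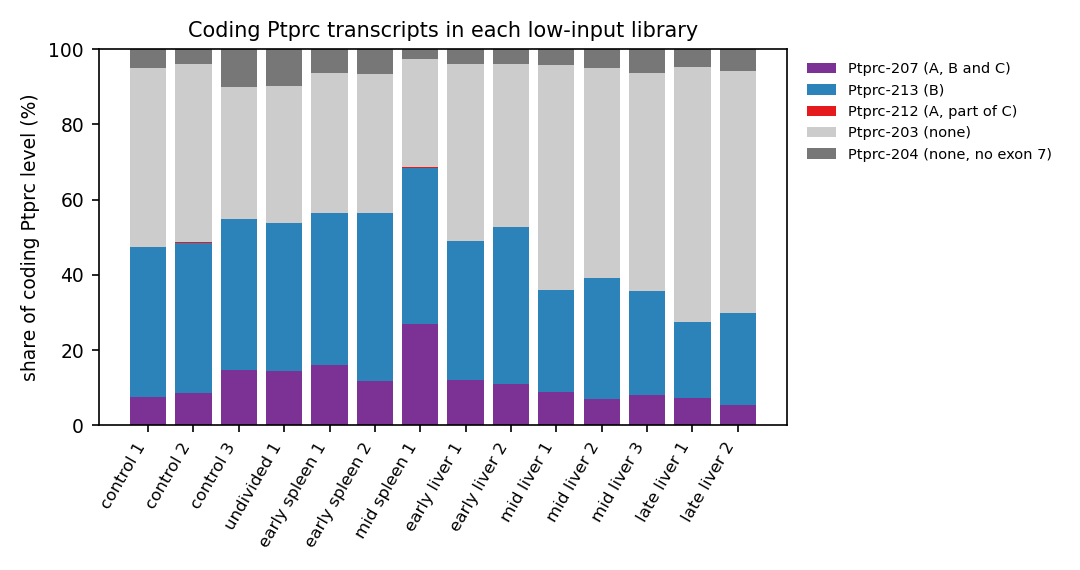
Share of each coding Ptprc transcript (percent of the level of all coding Ptprc transcripts) in the 14 low-input libraries, 1 bar per library. Transcripts with a variable exon are coloured and those without are grey. The coloured part is 47.4% to 54.9% in controls, 27.4% to 39.2% in mid and late liver and 68.7% in the mid spleen library.

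Ptprc-213, the transcript with exon B alone, made up most of the variable share on this scale, which divides by the length of a transcript cut short in the annotation. In estimated counts it was the smaller part in controls, at 7.27%, 6.9% and 6.54% of all Ptprc counts against 10.5%, 11.8% and 19.5% for Ptprc-207. Among the complete coding transcripts alone, without Ptprc-213, the variable share was 12.5%, 14.2% and 24.7% in controls and 6.99% to 12.3% in mid and late liver, a difference of -7.15 points. The highest of these controls was the day 18 library. Within series TG the control stood at 12.47% and the liver libraries at 12.25% (mid) and 9.13% (late). Within series XC the controls stood at 14.2% and 24.7% and the mid and late liver libraries at 6.99% to 11.26%. On the scale with Ptprc-213, it accounted for 39.9%, 40.1% and 40.1% of the coding level in controls. It fell to 27.2%, 32.2% and 27.5% in mid liver and to 20.1% and 24.6% in late liver, with no overlap with the controls. The 3 controls were closer to each other than the 2 runs of control replicate 1, which gave 35.8% and 43.1%. The difference of means was -13.7 percentage points (exact permutation p = 0.0357, adjusted 0.0536). Ptprc-207, with exons A, B and C, had 7.49%, 8.5% and 14.8% in controls against 5.27% to 8.92% in mid and late liver. These ranges overlapped, and the difference of -2.95 points was within the spread (exact permutation p = 0.214, adjusted 0.257). Ptprc-212 was at or near 0 throughout and reached 0.338% in the mid spleen library at most.

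Ptprc-203, the CD45RO transcript, took up the larger share in the liver. It held 47.6%, 47.6% and 34.98% of the coding level in controls, 59.8%, 55.9% and 58.1% in mid liver, and 67.9% and 64.2% in late liver. The groups did not overlap, and the means differed by 17.8 percentage points (exact permutation p = 0.0357, adjusted 0.0536). Ptprc-204 made up 3.82% to 10.2% in controls and 4.15% to 6.25% in mid and late liver (exact permutation p = 0.643). By the simpler share of estimated counts among all Ptprc transcripts, 1 of the 10 that passed the count filter was higher in all 5 mid and late liver libraries than in every control (Ptprc-203), where 4.9% of all transcripts were. On the same measure 3 were lower in these 5 libraries (Ptprc-201, Ptprc-202 and Ptprc-213), where 11.3% of all transcripts were.

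In terms of level rather than share, the CD45RO transcript did not pass the test and the longer forms fell. Ptprc-203 stood at 143 to 183 TPM in controls and 54.5 to 204.6 TPM in mid and late liver. Its log2 fold change was -0.05 (95% interval -0.51 to 0.41, edgeR quasi-likelihood test with Benjamini-Hochberg adjustment, adjusted p = 0.886). Ptprc-213 went from 147 ± 21.1 TPM (SD, n = 3) to 59.5 ± 37.7 TPM (SD, n = 5), a log2 fold change of -1.19 ± 0.21 (SE, edgeR, adjusted p = 0.0202). Ptprc-207 went from 38.8 ± 19.5 TPM (SD, n = 3) to 15.3 ± 7.43 TPM (SD, n = 5), a log2 fold change of -1.07 ± 0.24 (SE, edgeR, adjusted p = 0.0263). Ptprc-204 had a log2 fold change of -0.77 ± 0.27 (SE, edgeR, adjusted p = 0.0772) and did not pass. In all, 7 of the 10 tested Ptprc transcripts fell and none rose, where 8.91% of the 51816 transcripts tested fell and 7.86% rose. The 10 belong to 1 gene, whose total also fell, and many of them share reads. Counts of them, here and below, are therefore not counts of independent changes. The 3 that did not enter the test (Ptprc-206, Ptprc-209 and Ptprc-212) had too few counts.

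The levels of these transcripts lost their adjusted p when single libraries were left out. Without control replicate 1, no transcript of any gene passed, and the log2 fold changes were -0.91 for Ptprc-213 and -1.23 for Ptprc-207 (edgeR, adjusted p = 0.123 and 0.119). The direction of both held without each of the 8 libraries in turn, with Ptprc-213 past the threshold in 5 fits and Ptprc-207 in 2.

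**Figure D3:**
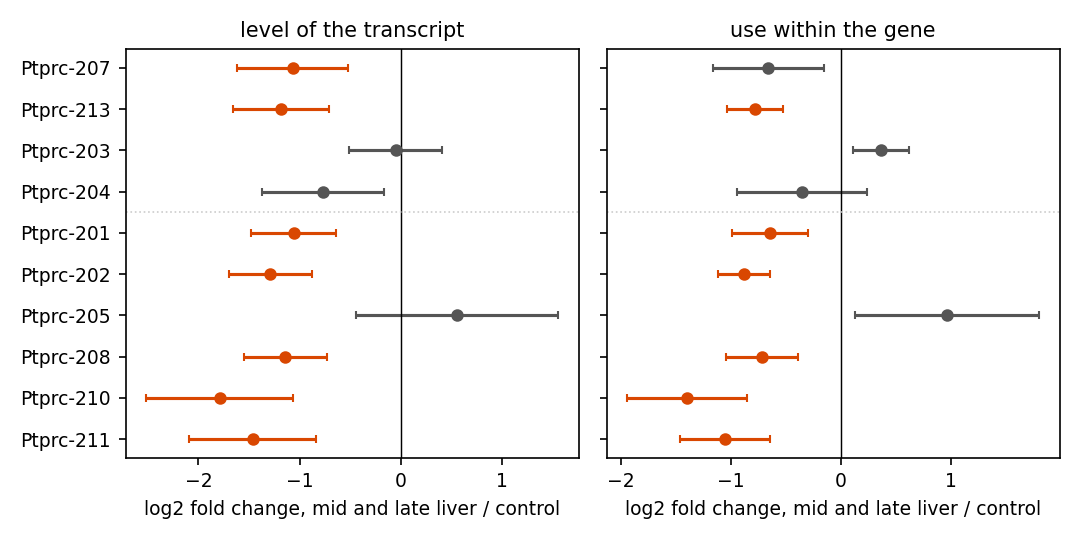
Log2 fold change of each tested Ptprc transcript in mid and late liver over control (points) with 95% intervals (bars), for the level of the transcript (left) and its use relative to the total of the gene, each transcript with its own spread (right). Orange marks an adjusted p under 0.05. The coding transcripts are above the dotted line and the retained-intron transcripts below it, and the level of Ptprc-203 is near 0 while Ptprc-207 and Ptprc-213 are lower by about 1.

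Use of a transcript relative to the rest of its gene was tested in addition. In edgeR's diffSpliceDGE, which shares 1 spread over the transcripts of a gene, Ptprc-213 had a log2 change in use of -0.77 ± 0.23 (SE, adjusted p = 0.314) and Ptprc-203 of 0.36 ± 0.22 (SE, adjusted p = 0.822). The retained-intron transcript Ptprc-210 was the only one of the 10 to pass (-1.38, adjusted p = 0.0391), where 1.83% of 46623 transcripts passed and 1.54% were lower. That call held in 1 of 8 fits with a library left out, the one without mid liver replicate 2 (adjusted p = 0.0368 to 0.423), and it was lost without the series term (adjusted p = 0.522). The gene-level test gave Ptprc an adjusted p of 0.0678, where 6.09% of 9699 genes passed. A fit in which each transcript has its own spread, added after the data had been seen, placed 6 of the 10 lower in use, where 5.5% of transcripts were lower. These were Ptprc-213 (log2 change -0.78 ± 0.11, SE, edgeR, adjusted p = 0.0293) and the retained-intron transcripts Ptprc-201, Ptprc-202, Ptprc-208, Ptprc-210 and Ptprc-211. The changes of Ptprc-203 (0.36, edgeR, adjusted p = 0.0848) and Ptprc-207 (-0.66, edgeR, adjusted p = 0.109) missed the threshold in it. The change of Ptprc-213 kept its direction without each of the 8 libraries in turn, at -0.67 to -0.87, and passed the threshold in 2 of these fits (adjusted p = 0.0351 to 0.17).

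Transcripts with retained introns made up less of the Ptprc counts in the liver. They took 14.1% to 18.9% of the estimated Ptprc counts in controls and 7.82% to 11.4% in mid and late liver. The groups did not overlap, and the means of 16.0% ± 2.59 (SD, n = 3) and 9.67% ± 1.58 (SD, n = 5) differed by -6.28 percentage points (exact permutation p = 0.0357, adjusted 0.0536). This share was steady between runs of a library, with a largest difference of 0.47 points. Of the 6 retained-intron transcripts tested, 5 fell in level, where 8.91% of all transcripts did. With 1 library left out, Ptprc-201, Ptprc-202, Ptprc-208 and Ptprc-210 each passed in 5 of 8 fits and Ptprc-211 in 4. The adjusted p reached 0.127 in these fits (edgeR), and the direction held in all of them. Ptprc-210, which covers exons B and C and the intron between them, went from 10.1 ± 4.88 TPM (SD, n = 3) to 3.07 ± 2.93 TPM (SD, n = 5), with a log2 fold change of -1.79 ± 0.32 (SE, edgeR, adjusted p = 0.0202). Ptprc-202, near the 5′ end, had a log2 fold change of -1.29 (edgeR, adjusted p = 0.0198), and Ptprc-201, which covers the 3′ part of the gene, one of -1.06 (edgeR, adjusted p = 0.02). Ptprc-205 (0.56, edgeR, adjusted p = 0.391) did not pass. 

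Ptprc as a whole was modestly lower in mid and late liver. Its level, summed over all 13 transcripts, was 377, 457 and 511 TPM in controls, 188, 434 and 285 TPM in mid liver, and 99.4 and 264 TPM in late liver. The mid liver range reached into that of the controls, and both late libraries lay below all controls. On TMM-scaled counts relative to library size (CPM), the controls stood at 1421, 1591 and 1603, the mid liver libraries at 968, 1601 and 1160 and the late liver libraries at 663 and 1120. The log2 fold change for mid and late liver together was -0.54 ± 0.18 (SE, edgeR, adjusted p = 0.0302), where 20.8% of the 15465 genes tested were lower and 43.8% passed in either direction. Late liver alone passed (-0.76 ± 0.23, SE, edgeR, adjusted p = 0.0283, where 14.3% of genes were lower) and mid liver alone did not (-0.33 ± 0.20, SE, edgeR, adjusted p = 0.22). The combined call was lost in 6 of 8 fits that left out 1 library, which gave -0.38 to -0.64. It held only without mid liver replicate 2 or late liver replicate 2, and it was also lost without the series term (-0.55, edgeR, adjusted p = 0.115). In early liver, at 531 and 556 TPM, the log2 fold change was -0.10 (95% interval -0.61 to 0.41, edgeR, adjusted p = 0.928).

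**Figure D4:**
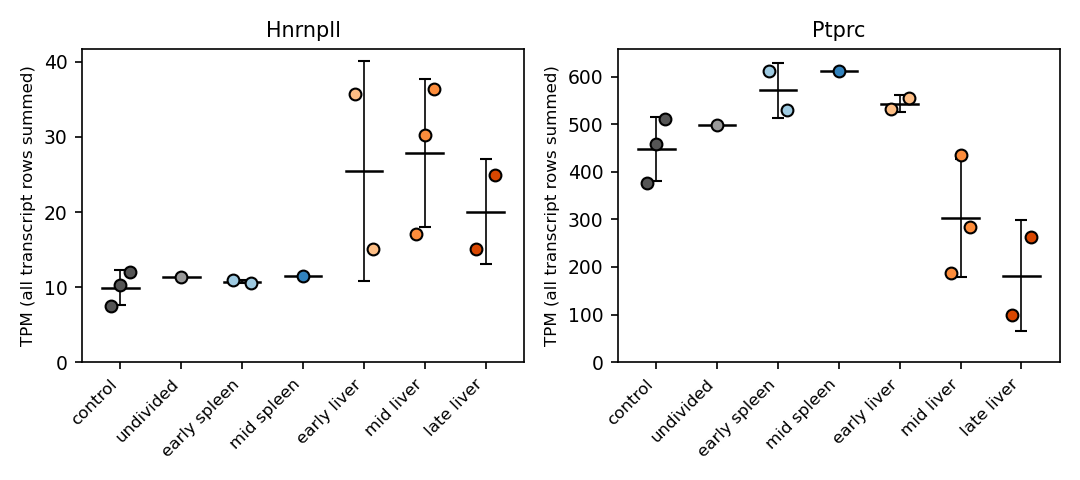
Level of Hnrnpll (left) and Ptprc (right) in TPM summed over the transcripts of the gene, by group. Points are libraries, horizontal lines group means and bars ± 1 SD where a group has 2 or 3 libraries. Hnrnpll lies at 7.46 to 12.0 TPM in the 7 spleen libraries and 15.1 to 36.3 TPM in the 7 liver libraries, and Ptprc is lowest in late liver.

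Hnrnpll was higher in mid and late liver TCRTg101 than in controls. Its level was 7.46, 10.3 and 12.0 TPM in controls, 17.0, 30.2 and 36.3 TPM in mid liver, and 15.1 and 25.0 TPM in late liver. All 5 liver libraries lay above the highest control, and how many other genes were separated in this way was not counted. In CPM the controls stood at 26.3, 31.8 and 32.9 and the 5 liver libraries at 73.9 to 117. The log2 fold change was 1.57 ± 0.28 (SE, a 2.96-fold rise, edgeR, adjusted p = 0.00389), where 23.1% of the genes tested rose. The rise passed the threshold without each of the 8 libraries in turn, at 1.49 to 1.67. Within series XC alone, where few degrees of freedom were left and 6 genes passed in all, it was 1.48 (edgeR, adjusted p = 0.072). Mid liver alone gave 1.63 ± 0.30 (SE, edgeR, adjusted p = 0.013, where 17.5% of genes rose) and late liver alone 1.499 ± 0.33 (SE, edgeR, adjusted p = 0.0101, where 19.9% rose). With 1 library left out, the mid liver call was lost in 4 of 8 fits (without control replicate 1 or 2 or mid liver replicate 1 or 3, 1.499 to 1.73, adjusted p up to 0.074) and the late liver call in 3 of 8 (without control replicate 1 or either late library, 1.34 to 1.68, adjusted p up to 0.0885).

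Early liver libraries split on Hnrnpll. Early liver replicate 1 stood at 35.8 TPM, near the highest mid liver library, and early liver replicate 2 at 15.1 TPM. Together they gave a log2 fold change of 1.07 ± 0.34 (SE, edgeR, unadjusted p = 0.00957, adjusted p = 0.404). No gene passed in that comparison, where 1675 genes (10.8%) had an unadjusted p under 0.05, and DESeq2 called 409 without Hnrnpll among them. The adjusted p of Hnrnpll was 0.0047 when genes with few counts were kept in the fit, so the call turned on that filter. Spleen libraries were close to the controls in level. Hnrnpll was at 11.3 TPM in undivided cells, 10.9 and 10.6 TPM in early spleen and 11.5 TPM in mid spleen. The log2 fold changes against control were 0.00 (95% interval -0.94 to 0.94), -0.21 (-0.97 to 0.55) and -0.04 (-0.99 to 0.91), none with an adjusted p under 0.05. In these comparisons 0, 0 and 1 genes (0.00647%) passed in edgeR and 1.13%, 6.29% and 5.14% of genes had an unadjusted p under 0.05, while DESeq2 called 0, 14 and 12 genes. Groups of 1 library were tested only under the assumption that they vary like the others.

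Ordered by level, every liver library lay above every spleen library for Hnrnpll. The spleen libraries ran from 7.46 to 12.0 TPM and the liver libraries from 15.1 to 36.3 TPM. The same held for 0.401% of 15452 genes, and this ordering was noticed after the values had been seen. In CPM the spleen libraries reached 32.9 and the lowest liver library, early liver replicate 2, stood at 37.3. The order within the liver depended on the scale, since late liver replicate 1 was level with that library in TPM (15.1 each) and at 80.5 in CPM. Liver against spleen at the same time gave a log2 fold change of 1.28 ± 0.37 for early libraries (SE, edgeR, adjusted p = 0.544) and of 1.67 ± 0.47 for mid libraries (SE, edgeR, adjusted p = 0.711), of which the second was added after the data had been seen. Late liver against undivided spleen cells gave 1.499 ± 0.49 (SE, edgeR, adjusted p = 0.119) and passed in DESeq2 (1.501, adjusted p = 0.0296). With edgeR, 0, 1 and 0 genes passed in the early, mid and late comparisons, which is 0.00647% for the mid one, and 1395, 899 and 3750 genes (9.02%, 5.81% and 24.2%) had an unadjusted p under 0.05. DESeq2 called 61, 17 and 1947 genes in them, with Hnrnpll called only in the late one.

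The level of Hnrnpll and the variable-exon share did not line up in every library. Early liver replicate 1 had nearly the most Hnrnpll (35.8 TPM) and a share of 49.1%, within the control range of 47.4% to 54.9%. Late liver replicate 1 had the lowest share (27.4%) and early liver replicate 2 a share of 52.8%, and their order in Hnrnpll depended on the scale, at 15.1 TPM each but 80.5 and 37.3 CPM. The mid or late liver library with the most Hnrnpll on both scales (36.3 TPM and 117 CPM) had a share of 35.7%. The one with the least was late liver replicate 1 in TPM and mid liver replicate 1 (73.9 CPM, a share of 36.1%) in CPM. The libraries fall into separate groups by tissue and time, none of which has 6 members, so no correlation was computed.

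**Figure D5:**
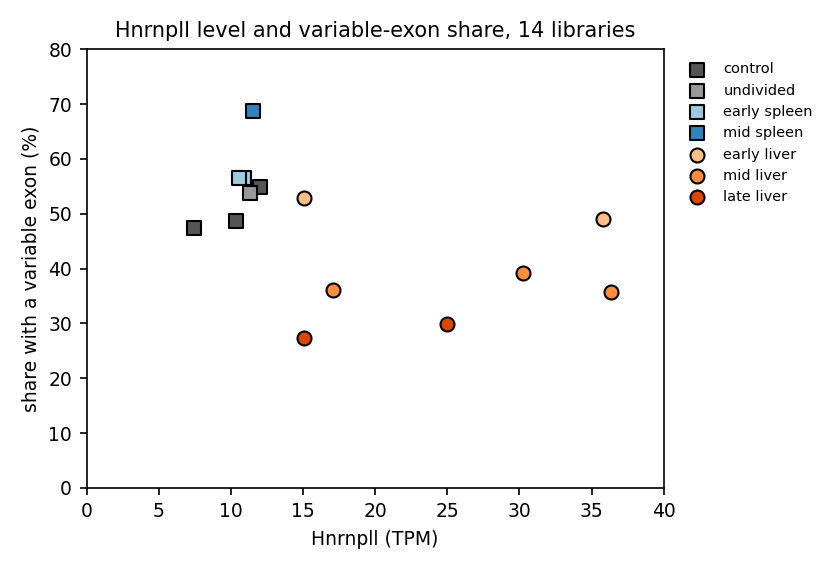
Hnrnpll level in TPM against the share of coding Ptprc transcripts with a variable exon in percent, 1 point per low-input library, with squares for spleen and circles for liver. The mid and late liver libraries are low in share at 15.1 to 36.3 TPM, and both early liver libraries, at 15.1 and 35.8 TPM, keep shares of 52.8% and 49.1%.

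Spleen cells of leukemia-bearing mice did not show the lower variable-exon share. It was 53.8% in undivided cells, beside 54.9% in the day 18 control, and 56.4% and 56.5% in early spleen, so that early spleen lay above all controls and undivided cells lay within their range. Ptprc-207, the CD45RABC transcript, had 14.4% in undivided cells and 16.1% and 11.7% in early spleen. The mid spleen library stood apart with a variable-exon share of 68.7% and a Ptprc-207 share of 26.9%, against 7.49% to 14.8% in controls, while its Ptprc-213 share of 41.5% was near theirs. Its 2 runs gave 68.1% and 69.6%. Against control, the level of Ptprc-207 had a log2 fold change of 1.63 ± 0.36 (SE, edgeR, unadjusted p = 0.00158, adjusted p = 1), and no transcript passed in that comparison, where 1936 (3.74%) had an unadjusted p under 0.05. B cells carry long CD45 forms, and B cell markers summed to 25.8 TPM there against 14.9 to 21.2 TPM in controls and 24.2 TPM in undivided cells. Of that sum Cd79b made up 24.1 TPM, while Cd79a was at 0.649, Ms4a1 at 0.775 and Pax5 at 0.115 TPM. Macrophage markers summed to 17.7 TPM in the mid spleen library, 7.54 TPM in undivided cells and 5.77 to 185.6 TPM in controls. The part of other cell types in the mid spleen share was not tested. Ptprc as a whole was at 612 TPM in this library (log2 fold change 0.13, 95% interval -0.51 to 0.76).

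Other proteins that act on CD45 splicing were read from a list of 21 genes, Hnrnpll included. In mid and late liver 7 rose and 2 fell, where 23.1% and 20.8% of genes did, and 12 did not pass. The median log2 fold change of the list was 0.46, where that of all genes was -0.07. After Hnrnpll the largest changes were in Hnrnpa1 (1.28 ± 0.32, SE, edgeR, adjusted p = 0.0114), an hnRNP protein that often acts to silence exons, and Srsf5 (-1.19 ± 0.24, SE, edgeR, adjusted p = 0.00498), a serine/arginine-rich splicing factor. Hnrnpa1 stood at 96.0 to 180.5 CPM in controls and 213.6 to 524 in mid and late liver, highest in the 2 libraries of series TG, whose control was also the highest control. Srsf2 (0.996), Ptbp1 (0.92), a polypyrimidine tract binding protein, and Srsf1 (0.81) rose as well (edgeR, adjusted p = 0.0047, 0.00777 and 0.0165), as did Nono and Pcbp2. Pcbp2 stood at 148.6 CPM in the series TG control and at 240.1 and 269.6 in the liver libraries of that series. In series XC it moved less, from 78.4 and 82.0 CPM in controls to 89.2 to 95.4 in mid and late liver. Gsk3b, whose kinase acts on a regulator of CD45 splicing, fell by 0.78 (log2, edgeR, adjusted p = 0.00807). Hnrnpl, the paralog of Hnrnpll, had a log2 fold change of 0.46 (edgeR, adjusted p = 0.064). Celf2 and Hnrnpu did not pass at 0.16 and 0.54. In the undivided, early spleen, mid spleen and early liver comparisons with control 0 of the 21 passed, where 0, 0, 1 and 0 of all genes did.

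Of 14 partners and substrates of CD45, 4 rose, 2 fell and 8 did not pass in mid and late liver, with a median log2 fold change of 0.15, where 23.1% of all genes rose and 20.8% fell. Lgals1, a galectin that binds CD45 sugars, rose by 3.29 ± 0.78 (log2, SE, edgeR, adjusted p = 0.0119). Zap70, the kinase downstream of Lck, rose by 1.28 (edgeR, adjusted p = 0.00353), and Ptprcap, a small transmembrane protein bound to CD45, by 1.06 (edgeR, adjusted p = 0.00585). Fyn, a direct substrate, rose by 0.86 (edgeR, adjusted p = 0.0126). Pag1, the adaptor that brings the inhibitory kinase Csk to the membrane, fell by 1.96 (edgeR, adjusted p = 0.0024), and the cytokine receptor kinase Jak1 fell by 0.84 (edgeR, adjusted p = 0.0104). Among 19 other receptor-type phosphatases, 9 had enough counts to test, and against the same shares of all genes 2 rose and 2 fell. Ptprs (3.37) and Ptprk (1.14) rose and Ptpro (-2.96) and Ptprf (-1.57) fell (edgeR, adjusted p = 0.00777, 0.0381, 0.00904 and 0.0326). Both that fell had very low levels. Ptpro stood at 0.45 to 1.8 CPM in controls and 0.036 to 0.22 in mid and late liver. Ptprf stood at 1.07 to 3.59 CPM in controls and 0.34 to 1.63 in mid and late liver, so its ranges overlapped. Ptprk was also low, at 2.5 to 3.95 CPM in controls and 4.72 to 11.1 in mid and late liver. In TPM the ranges of Ptprk overlapped, at 0.82 to 1.47 in controls and 0.906 to 2.19 in mid and late liver.

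Transcript use was also read in 7 other genes known for isoforms linked to T cell activation. Celf2 passed diffSpliceDGE's gene-level test (adjusted p = 0.0396), where 6.09% of genes did, and Cd44, Fyn, Traf3, Map2k7, Lef1 and Malt1 did not (adjusted p = 0.12 to 1). That test made many wrong calls on simulated data, which limits the call of Celf2. In level, where 23.1% of all genes rose and 20.8% fell, Cd44, the hyaluronan receptor that marks activated T cells, rose (2.85 ± 0.96, SE, edgeR, adjusted p = 0.0431), as did Fyn, and Lef1, Malt1 and Map2k7 fell.

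Genes of like pattern were taken by Pearson correlation of log2 CPM over the 14 low-input libraries, with the series effect removed, among 5881 well-expressed genes. Those most like Hnrnpll were Med14 (r = 0.972), Slc7a1 (0.971), Gramd1b (0.971), Morf4l2 (0.967) and Srp54c (0.967). Those most like Ptprc were Nod1 (0.931), Gm4759 (0.925), Chd3 (0.918), Mef2a (0.917) and Mbnl1 (0.915), the last of which encodes an RNA-binding protein of splicing. The libraries share groups and sequencing batches, and these coefficients describe only how levels ran together in them.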

How the data were processed

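Per the study's methods, TCRTg101 were sorted, RNA was taken in Trizol, and low-input libraries were sequenced on an Illumina HiSeq in 2 batches. The submitters' processing notes name bcl2fastq and kallisto, whose versions are not given in the sources used here. The deposited tables hold, per run and transcript, estimated counts and TPM as the authors' kallisto run gave them, with length and effective length. Of 26 runs, those of 1 library were summed, giving 15 libraries, of which 14 were low-input. Transcript identifiers were looked up in the GENCODE vM21 annotation of GRCm38, which held 98.25% of transcripts and 99.0% to 99.3% of counts, and the rest were left out. Estimated counts were summed per gene, rounded and tested with edgeR 4.0.16 in R 4.3.3 (TMM factors 0.723 to 1.22, robust quasi-likelihood F test, group and series as terms, Benjamini-Hochberg adjustment over all features, threshold 0.05) where at least 6 libraries had 10 counts, which kept 15465 genes and 51816 transcripts. The 14 libraries entered each fit, with 6 residual degrees of freedom. Log2 CPM used a prior count of 2. Shares were compared by exact permutation tests in Python 3.11.15 (scipy 1.17.1). Use of transcripts was tested with diffSpliceDGE. It made many wrong calls on simulated data, so a fit with the log of the gene total as offset, and a spread for each transcript, was added after the data had been seen, as were series XC alone and mid liver against mid spleen. Alternatives were RLE size factors, no filter on low counts, no series term, 11 libraries without leukemia spleen, first runs, DESeq2 1.42.0, limma 3.58.1 (voom) and each library left out. The genes named are the members, up to 6 of each list by size of change among those past the threshold plus others (such as Hnrnpl, Celf2, Hnrnpu, Nono and Pcbp2) named after their values were seen, and 5 genes of like pattern. The members and lists were chosen with earlier results of these data known. One marker gene is not reported here.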

Additional observations from a re-analysis of the deposited data

Results flagged for a closer look

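The variable-exon share of the mid spleen library lay 18.4 percentage points above the control mean of 50.3%, while the 3 mid liver libraries lay below it, at -14.2, -11.1 and -14.6 points. The groups moved in opposite directions from the same controls, and with 1 mid spleen library the difference in share was not tested. At transcript level Ptprc-207 had a log2 fold change of -2.30 ± 0.36 in mid liver over mid spleen (SE, edgeR, unadjusted p = 0.000155, adjusted p = 0.506), a comparison in which no transcript passed and 2124 had an unadjusted p under 0.05.

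The oligo-dT library of day 0 cells, used in no comparison, placed 76.9% of the coding Ptprc level on Ptprc-204, against 3.82% to 10.2% in the low-input controls, and 4.29% on transcripts with a variable exon. Ptprc-203 had 18.8% there and retained-intron transcripts 3.36% of the Ptprc counts. It is a single library of another protocol. Groups held at most 3 libraries, so no library was checked as an outlier within its group.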

How the results depend on the processing

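No paired analysis was possible because the replicate numbers only follow the order of the samples. The lower variable-exon share kept its direction under 5 other definitions (-16.3 to -7.15 points, the smallest with complete coding sequences only, which leaves out Ptprc-213). The p of 0.0357 is the smallest the design allows and stays there whenever the groups do not overlap, so it says nothing about stability. The difference was -18.1 to -14.4 points with 1 library left out, where the exact permutation p of 0.0571 to 0.0952 cannot reach 0.05. All values that follow are log2 fold changes, against control unless stated. Without the filter on low counts Hnrnpll passed in early liver (1.05), late liver against undivided (1.51, and 1.501 in DESeq2), early liver against early spleen (1.29) and mid liver against mid spleen (1.75), while Ptprc missed in mid and late liver (-0.53) and late liver (-0.75). In series XC alone Hnrnpll missed in mid and late (1.48), mid (1.63) and late liver (1.33), Ptprc in mid and late (-0.41) and late liver (-0.55), Ptprc-207 at -1.19 and Ptprc-213 at -0.86. Without the series term Ptprc missed in mid and late (-0.55) and late liver (-0.79), and Ptprc-207 at -1.12. Values near 0 changed sign. Hnrnpll in undivided cells was -0.0022 without the filter, -0.0090 in 11 libraries, -0.055 in first runs and -0.013 in series XC, and in mid spleen 0.055 without the series term. Ptprc without the series term was 0.11 in undivided cells, 0.079 in early spleen and 0.052 in early liver, and in series XC 0.038 and 0.017 in the first 2 of these. Ptprc-203 in level was 0.24 in series XC. In limma voom the use of Ptprc-203 passed at 0.98 and that of Ptprc-204 was 0.20, and with its own spread that of Ptprc-213 passed at -0.78. With 1 library left out, Hnrnpll was 1.499 to 1.73 in mid liver (past in 4 of 8), 1.34 to 1.68 in late liver (5 of 8) and -0.030 to 0.036 in undivided cells. Ptprc was -0.64 to -0.38 in mid and late liver, -0.99 to -0.56 in late liver (lost without control replicate 1 or either late library), -0.14 to 0.030 in early spleen and -0.12 to 0.051 in undivided cells. Ptprc-203 in level was -0.23 to 0.20, Ptprc-207 -1.23 to -0.79, Ptprc-213 -1.38 to -0.91, and the use of Ptprc-204 -0.63 to 0.035. Genes past the threshold numbered 6780, and 4445 without the series term, 6 in series XC and 2145 to 6135 with 1 library left out. Transcripts numbered 8693, against 1995, 1 and 0 to 6837, and 13670 in voom. Transcripts changed in use numbered 852, against 154, 224 and 166 to 834, with 532 in first runs, 3009 with their own spread and 5800 in voom. Unless stated, the cause of these changes was not tested. The few bases that separate the coding transcripts limit their shares.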
